A study of Mus musculus with 2 samples.

Results

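Bone morphogenetic proteins (BMPs) and growth differentiation factors (GDFs) were followed together with their antagonists in cultured cells of the articular cartilage surface. The group holds 10 genes, the ligand genes Bmp2, Bmp4, Bmp5, Bmp6, Bmp7, Gdf5 and Gdf10, the secreted antagonist genes Grem1 and Fst, and the decoy receptor gene Bambi. Its members are all probe sets whose platform gene symbol is exactly 1 of these names, which gave 15 probe sets for 10 of the 18193 named genes on the array. The cells, superficial zone cells (SFZ), were taken from femoral and tibial joint cartilage of ICR mice on postnatal day 4 and grown in DMEM with 10% serum. They were cultured for 24 h with 10 μM retinoic acid, the active form of vitamin A, or without it (control). Each condition has 1 culture and 1 Affymetrix Mouse Genome 430 2.0 array, so no test was possible, no p-value is given and every fold describes these 2 arrays only. The labels do not give the number of animals behind a culture or say whether both cultures came from 1 preparation.

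BMPs and GDFs are secreted dimers of the TGF-β superfamily. They bring type I and type II serine/threonine kinase receptors together on the cell surface, and the type I receptor then phosphorylates the transducers Smad1, Smad5 and Smad9, which enter the nucleus with Smad4 and switch on targets such as the Id genes. Extracellular antagonists bind the ligands and keep them from the receptors. In cartilage the pathway drives condensation and chondrocyte differentiation, and Gdf5 marks the cells that form joints.

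Values are MAS5 signals, the linear intensity that the Affymetrix algorithm gives each probe set. A signal at or below the array's own median (29.7 on the retinoic acid array, 26.5 on the control array) was taken as too dim to read and was raised to that floor. A gene was counted as measured when its brightest probe set lay above the floor on at least 1 array, and as higher or lower when its signal with retinoic acid differed at least 2-fold from control. By this rule 777 of 11884 measured genes (6.54%) were higher with retinoic acid and 516 (4.34%) were lower. The median log2 ratio of retinoic acid over control was 0.011 and 90% of the ratios lay between −0.94 and 1.19. The only repeat measurement is that between different probe sets of 1 gene. The SD of their log2 ratios was 0.30 over 4993 genes, or 0.37, 0.31 and 0.22 for genes with a mean signal below 100, from 100 to 500 and above 500. It covers scatter within the same RNA and no variation between cultures.

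The markers of the label were readable on both arrays, which does not identify the cells, because other lists passed the same floor. All 8 superficial zone markers and all 13 chondrocyte markers lay above the floor on both arrays, among them Prg4, which encodes the joint lubricant lubricin (1148 with retinoic acid, 1920 in control). The chondrocyte list moved with the treatment. Of its 13 genes 8 were at least 2-fold lower and 0 higher, against 4.34% and 6.54% of all measured genes. Its summed signal was 31809 with retinoic acid and 60638 in control. Bright genes within 2-fold, Col2a1, Col9a1, Col11a1 and Comp, carry most of the sum with retinoic acid. The widest falls were those of Acan (32.3-fold), Sox9 (10.8-fold) and Hapln1 (9.37-fold). Of 8 superficial zone markers 1 passed 2-fold upward, Clu (5.97-fold higher), and 2 downward, Sfrp2 (14.6-fold lower) and Has2 (6.13-fold lower). With retinoic acid Has2 read 29.9, just above the floor of 29.7. The 9 fibroblast and synovium markers were all above the floor on both arrays, with summed signals of 51745 with retinoic acid and 52111 in control. A few bright genes, the collagen genes, Lum and Dcn, carry most of these sums, and 1 of the 9, Pdgfra (6023 with retinoic acid, 2333 in control), was at least 2-fold higher and 1, Thy1 (201 with retinoic acid, 507 in control), at least 2-fold lower. Of 5 endothelial markers 1 was above the floor with retinoic acid and 0 in control. Among 6 blood and macrophage markers 4 were above it on each array. The other genes of that list, the pan-leukocyte gene Ptprc and Tyrobp, were below it on both arrays. Smooth muscle markers summed to 5725 with retinoic acid and 4048 in control, and 4 of 5 were above the floor on each array, with 1 at least 2-fold lower and 0 higher. Summed signals were lower with retinoic acid for osteoblast markers (232 against 352 in control) and for tendon markers (1009.9 against 1163 in control), with 2 of 4 measured genes at least 2-fold lower and 0 higher in each list. Blood and macrophage markers summed to 264 with retinoic acid and 204 in control. Skeletal muscle markers summed to 388 with retinoic acid and 344 in control, with 4 of 5 above the floor on each array. In both lists 0 genes passed 2-fold. Adipocyte markers summed to 11.7 with retinoic acid and 6.46 in control, with 0 of 2 above the floor on either array. The part of any of these differences in the BMP results was not tested, and in bulk RNA fewer cells of a type and less RNA per cell cannot be told apart.

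Within the BMP group retinoic acid went with higher signal of some ligand genes and lower signal of the antagonist genes. The largest differences were those of Bmp2, 7.30-fold higher, and Fst, 4.13-fold lower, and Bmp7 (2.29-fold higher) and Grem1 (2.12-fold lower) also passed 2-fold. All 3 antagonist genes had a log2 ratio below 0 (median −1.08), whereas 4 of the 6 ligand genes with a ratio were above 0 (median 0.83). Of all 11733 genes with a ratio 5979 were above 0 and 5754 below. Outside the group, other ligand genes had 3 above and 4 below 0 (median −0.41), and other antagonist genes 3 above and 9 below (median −0.27). In all, 2 of 10 members passed 2-fold upward and 2 downward, 20% in each direction against 6.54% and 4.34% of all measured genes, and in a group of 10 each count rests on a pair of genes. The members were chosen with earlier results of these data known, so these shares only describe them. The members as a whole had no common direction: the median log2 ratio over the 9 with a ratio was −0.30 and the mean 0.07, against a median of 0.011 over all measured genes.

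**Figure D1:**
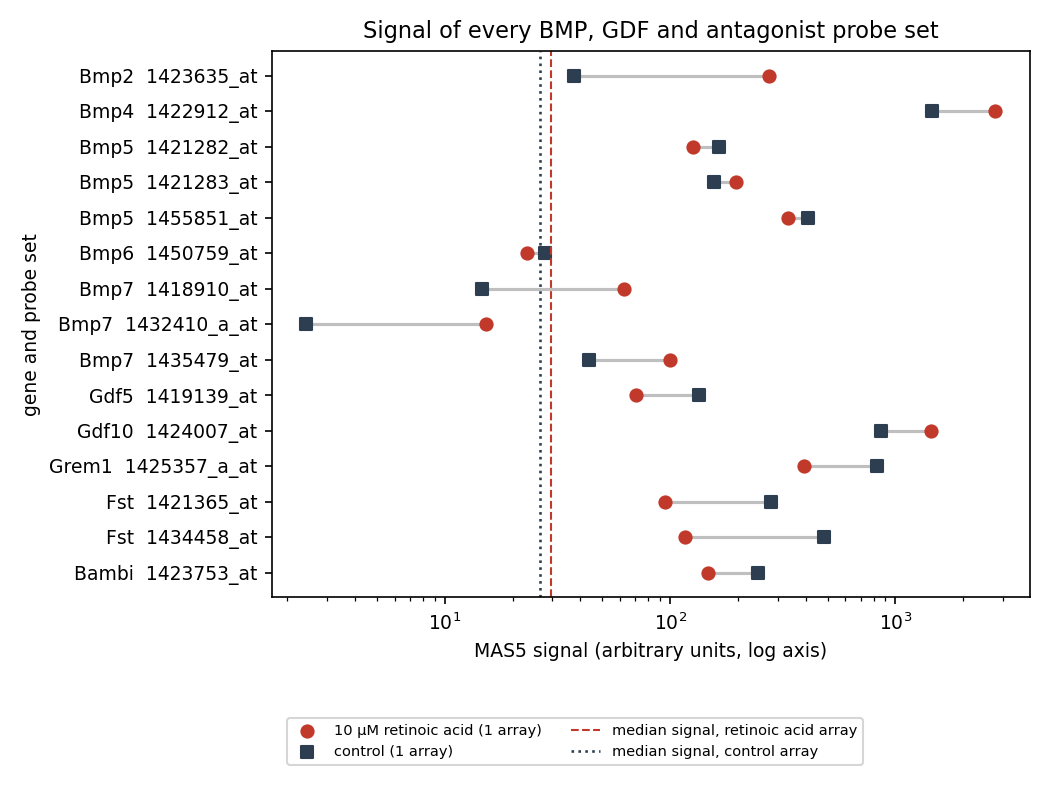
MAS5 signal (log axis) of each of the 15 member probe sets on the retinoic acid array (red circles) and the control array (dark squares), 1 array each, with the median signal of each array as a vertical line. The control signals of Bmp2 (37.5) and of the brightest Bmp7 probe set (43.7) lie just above the control median of 26.5, and both Fst probe sets are lower with retinoic acid.

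Among the ligand genes Bmp2 showed the widest difference. Bmp2 encodes a ligand that induces bone and cartilage. Its single probe set (1423635_at) read 273 with retinoic acid and 37.5 in control, a log2 ratio of 2.87. The control signal was close to the floor, so the fold rests on a dim baseline. The ratio was higher than that of 99.4% of the measured genes that have one.

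Bmp7, which encodes a BMP that acts in kidney, eye and skeletal development, was read by 3 probe sets. The brightest (1435479_at) read 100.3 with retinoic acid and 43.7 in control, a log2 ratio of 1.20. The second (1418910_at) read 62.7 with retinoic acid and 14.6, below the floor, in control, which makes it at least 2.36-fold higher. The third (1432410_a_at) read 15.3 with retinoic acid and 2.42 in control, below the floor on both arrays, and gives no fold. The 2 readable probe sets thus differed in the same direction, at low signal throughout.

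Bmp4 and Gdf10 had higher signal with retinoic acid but stayed within 2-fold. Bmp4, the closest relative of Bmp2 and a ligand of early cartilage formation, read 2775 with retinoic acid and 1456 in control, 1.91-fold higher with a log2 ratio of 0.93. Gdf10, also named Bmp3b, encodes a ligand related to BMP3. Its signal was 1442 with retinoic acid and 866 in control, 1.66-fold higher with a log2 ratio of 0.73. The log2 ratios of both genes were over 3 times the scatter of 0.22 between probe sets of genes this bright, a scatter that holds no variation between cultures.

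Gdf5 was lower and Bmp5 showed no clear direction. Gdf5, the joint interzone ligand whose loss causes brachypodism in mice, read 70.7 with retinoic acid and 134 in control, 1.89-fold lower with a log2 ratio of −0.92. Bmp5, a ligand gene mutated in short-ear mice, has 3 probe sets that were all readable in both cultures, and they disagreed in sign. The brightest (1455851_at) read 332 with retinoic acid and 409.7 in control, a log2 ratio of −0.30. A second (1421282_at) read 126 with retinoic acid and 165 in control, a log2 ratio of −0.39, and the third (1421283_at) read 197 with retinoic acid and 156 in control, a log2 ratio of 0.33. Bmp6, a ligand expressed in hypertrophic chondrocytes, read 23.1 with retinoic acid and 27.8 in control, around the floor of both arrays, and gives no fold.

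The antagonist genes were lower with retinoic acid at every probe set. Fst encodes follistatin, a secreted protein that binds activins tightly and several BMPs more weakly. Its brightest probe set (1434458_at) read 117 with retinoic acid and 482 in control, a log2 ratio of −2.05, and the other (1421365_at) read 94.8 with retinoic acid and 279 in control, 2.95-fold lower with a log2 ratio of −1.56. Only 0.733% of the measured genes with a ratio had a lower one than the brightest Fst probe set.

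Grem1 encodes gremlin 1, a secreted antagonist of BMP2, BMP4 and BMP7. Its probe set (1425357_a_at) read 391 with retinoic acid and 828 in control, 2.12-fold lower with a log2 ratio of −1.08. Bambi encodes a membrane protein that resembles a type I receptor but lacks the kinase domain. It read 147 with retinoic acid and 244 in control, 1.66-fold lower with a log2 ratio of −0.73, within 2-fold. The probe set of the related pseudogene Bambi-ps1, which the rule leaves out, was below the floor on both arrays (14.8 with retinoic acid, 16.8 in control).

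At the level of probe sets, 14 of the 15 were above the floor on at least 1 array. Of these 3 passed 2-fold upward, 1 for Bmp2 and 2 for Bmp7, and 3 downward, 2 for Fst and 1 for Grem1. Among all 21519 such probe sets with 1 gene symbol, 6.46% passed 2-fold upward and 3.76% downward.

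**Figure D2:**
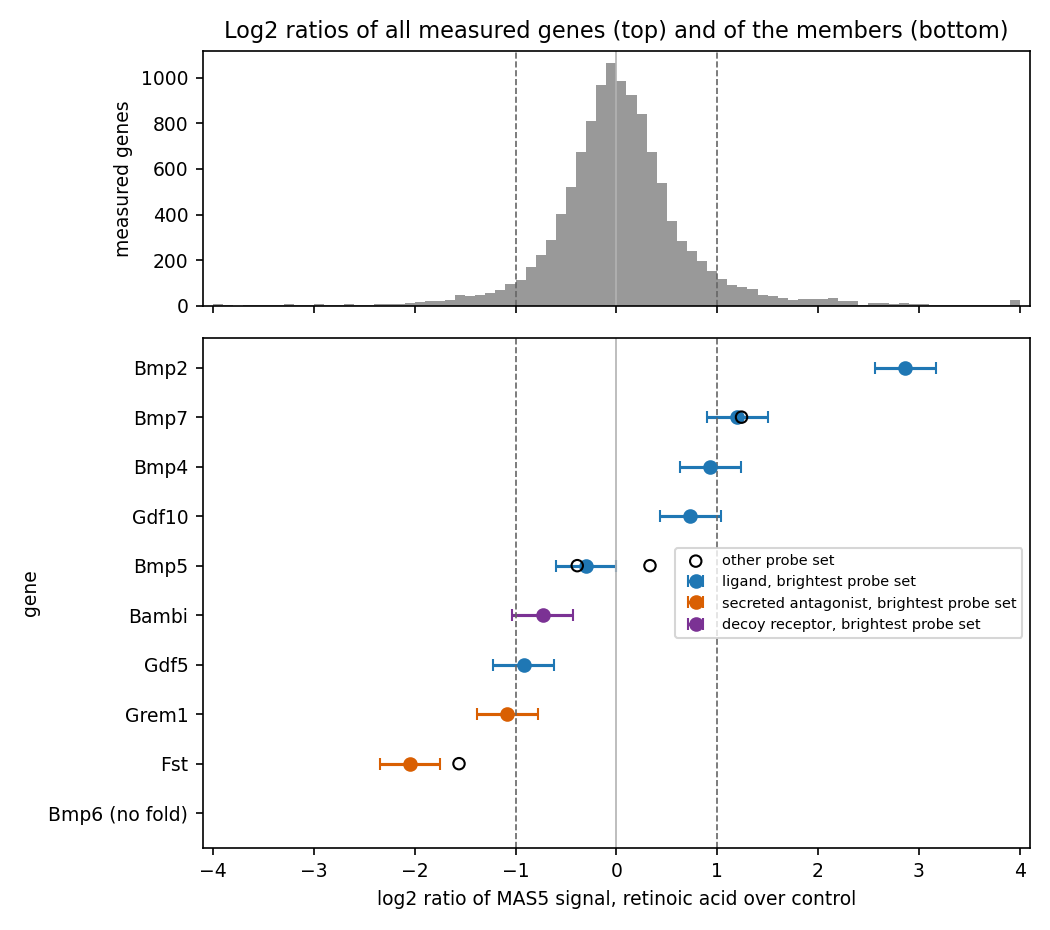
Top, the number of measured genes by log2 ratio of MAS5 signal, retinoic acid over control (ratios beyond 4 in either direction are drawn in the end bars). Bottom, the members in the order of their ratios, with filled points for the brightest probe set, bars of ± 0.30 for the SD between probe sets of 1 gene (not an error between cultures) and open circles for other probe sets with a ratio; dashed lines mark 2-fold. Bmp2 and Bmp7 lie beyond 2-fold on the right, Grem1 and Fst on the left, and the open circles of Bmp5 fall on both sides of 0.

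Retinoic acid acts through nuclear receptors that bind DNA as pairs at direct repeats of a short hexamer, and the regions before the gene starts were read for it. RefSeq promoter sequence on GRCm38.p6 was matched for 5 of the 10 members, Bmp4, Bmp5, Bmp6, Gdf10 and Grem1. The 250 bases before the start were searched on both strands for the hexamer AGGTCA, for its common variants GGGTCA on the one hand and AGTTCA on the other, and for direct repeats of AGGTCA with 1, 2 or 5 bases of any kind between the copies. The TATA box TATAAA, the CCAAT box and the sequence GGCGCC, a GC-rich element of BMP-responsive genes, were searched as well. No motif overlaps another in the windows of the members. Grem1 and Bmp4 are shown because they are the 2 matched members with the widest ratios, in opposite directions; both genes lie on the minus strand and are printed 5′ to 3′ along the gene, with motif matches in capitals.
Grem1, chr2:113758649-113758898: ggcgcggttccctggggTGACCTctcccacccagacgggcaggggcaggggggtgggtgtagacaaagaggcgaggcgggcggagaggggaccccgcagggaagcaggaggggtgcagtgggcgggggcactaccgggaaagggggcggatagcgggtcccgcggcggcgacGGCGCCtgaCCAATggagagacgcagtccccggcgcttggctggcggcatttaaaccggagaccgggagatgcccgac
Bmp4, chr14:46390670-46390919: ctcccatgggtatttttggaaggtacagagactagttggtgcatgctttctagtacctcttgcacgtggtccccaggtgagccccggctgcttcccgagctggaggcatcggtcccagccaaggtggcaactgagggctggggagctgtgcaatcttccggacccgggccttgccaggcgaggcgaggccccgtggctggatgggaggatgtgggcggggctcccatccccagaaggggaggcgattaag

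The Grem1 window holds 1 hexamer, AGGTCA on the reverse strand 228 to 233 bases before the start, and closer to the start a GGCGCC and a CCAAT (73 to 78 and 65 to 69 bases before it). The Bmp4 window holds none of the motifs searched. Among the other matched members, Bmp6 has a GGGTCA on the reverse strand 92 to 97 bases before the start, and Bmp5 and Gdf10 have no match. AGGTCA occurs in 14% and GGGTCA in 11.6% of the 32851 promoter windows of this length, and 32.9% hold at least 1 of the 3 hexamers. AGTTCA occurs in 11.8%, TATAAA in 12.4%, CCAAT in 33.8% and GGCGCC in 9.59%. The direct repeats are rare, with 11, 3 and 3 windows for 1, 2 and 5 bases between the copies, and no member window holds one. A match is a string of letters and not a bound site, and a missing match says only that these letters are not in this window. The windows of Gdf10 (78.8% G and C), Grem1 (72%), Bmp6 (68.8%) and Bmp4 (63.2%) are richer in G and C than the median window (52.4%), and that of Bmp5 (42.8%) is poorer.

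The rest of the pathway was read from lists of 104 genes arranged by role, of which 96 were read on the array by a probe set with 1 symbol. Of these 70 were measured, and 7 passed 2-fold upward and 6 downward, 10% and 8.57% against 6.54% and 4.34% of all measured genes. These lists, too, were chosen with earlier results of the data known, so the shares only describe them. Their median log2 ratio was 0.057. Under each of the 3 other scalings the counts were 5 higher and 7 lower. With the median scaling 726 of all 11884 measured genes were higher and 562 lower. The counts over all genes were 676 and 613 of 11885 with quantile normalization, and 711 and 565 of 11882 with loess. Several of the calls below rest on dim signals. With the floor at the 70th percentile Gdf11, Chrdl2, Bmpr1b, Hes1, Tbx2, Sp7 and Atoh8 had no ratio. Rgma kept only a bound there, a log2 ratio of at least 0.34. Nbl1 and Crim1 passed 2-fold there as well, and Tll1, Id4 and Dlx5 did so as bounds.

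Other ligand genes were mostly dim. Of 16 read, 7 were measured, and 1 passed 2-fold upward and 0 downward (median log2 ratio −0.41). That is 14.3% upward and 0% downward, against 6.54% and 4.34% of all measured genes. Gdf11, a ligand of axial patterning, was at least 2.03-fold higher, with a signal of 53.9 with retinoic acid and 26.1 in control; it was past 2-fold under 5 of 9 settings. Inhba, which encodes the activin subunit that follistatin binds, read 226 with retinoic acid and 402 in control, a log2 ratio of −0.83. Its other probe set was below the floor on both arrays. Combined by their median, the probe sets gave a log2 ratio of −1.37, past 2-fold.

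Other antagonists and ligand-binding proteins went both ways, and 2 of 12 measured genes passed 2-fold upward and 1 downward (median log2 ratio −0.27). The shares were 16.7% and 8.33%, against 6.54% and 4.34% of all measured genes. Nbl1, which encodes the secreted antagonist DAN, read 942 with retinoic acid and 319.5 in control, 2.95-fold higher. Crim1, which encodes a membrane protein with cysteine-rich repeats that tethers BMPs, read 824 with retinoic acid and 407 in control, 2.03-fold higher, and within 2-fold under each of the 3 other scalings (lowest log2 ratio 0.95, with quantile normalization). Its second probe set read 652 with retinoic acid and 182 in control, a log2 ratio of 1.84. The direction of Nbl1 and Crim1 was thus opposite to that of Fst and Grem1. Chrdl2, a chordin-like antagonist gene, was at least 2.15-fold lower, with a signal of 14.7 with retinoic acid and 63.9 in control. The classic antagonist genes were dim: Nog (noggin) read 29.3 with retinoic acid, below the floor, and 52.0 in control, and Chrd (chordin) read 39.9 with retinoic acid and 64.2 in control. Fstl1, a bright follistatin-like gene, read 3727 with retinoic acid and 4510.1 in control, a log2 ratio of −0.28.

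Of 12 measured receptors and coreceptors 10 lay within 2-fold, a range that held 89.1% of all measured genes, and 1 passed 2-fold upward and 1 downward (median log2 ratio 0.055). The type I receptor genes Bmpr1a (1611 with retinoic acid, 1389 in control) and Acvr1 (1083 with retinoic acid, 1104 in control) and the type II receptor gene Bmpr2 (1499.9 with retinoic acid, 1364 in control) had log2 ratios of 0.21, −0.03 and 0.14. The dimmer Bmpr2 probe sets differed in sign, with log2 ratios of −0.35 and at least 0.46. Bmpr1b, the type I receptor gene that transmits Gdf5 signals in limb cartilage, was the receptor at least 2-fold lower, with 51.3 with retinoic acid and 125 in control, a log2 ratio of −1.29. Its other 2 probe sets were below the floor on both arrays. With the floor at the 70th percentile Bmpr1b gave no fold, and with the 3 probe sets combined by their median it was not measured. The activin receptor gene Acvr2a had probe sets that differed, with a log2 ratio of −0.21 for the brightest and −1.06 for the dimmer, and Acvr2b was below the floor on both arrays. Rgma, which encodes a BMP coreceptor of the repulsive guidance family, read 154 with retinoic acid and 63.3 in control, 2.43-fold higher.

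**Figure D3:**
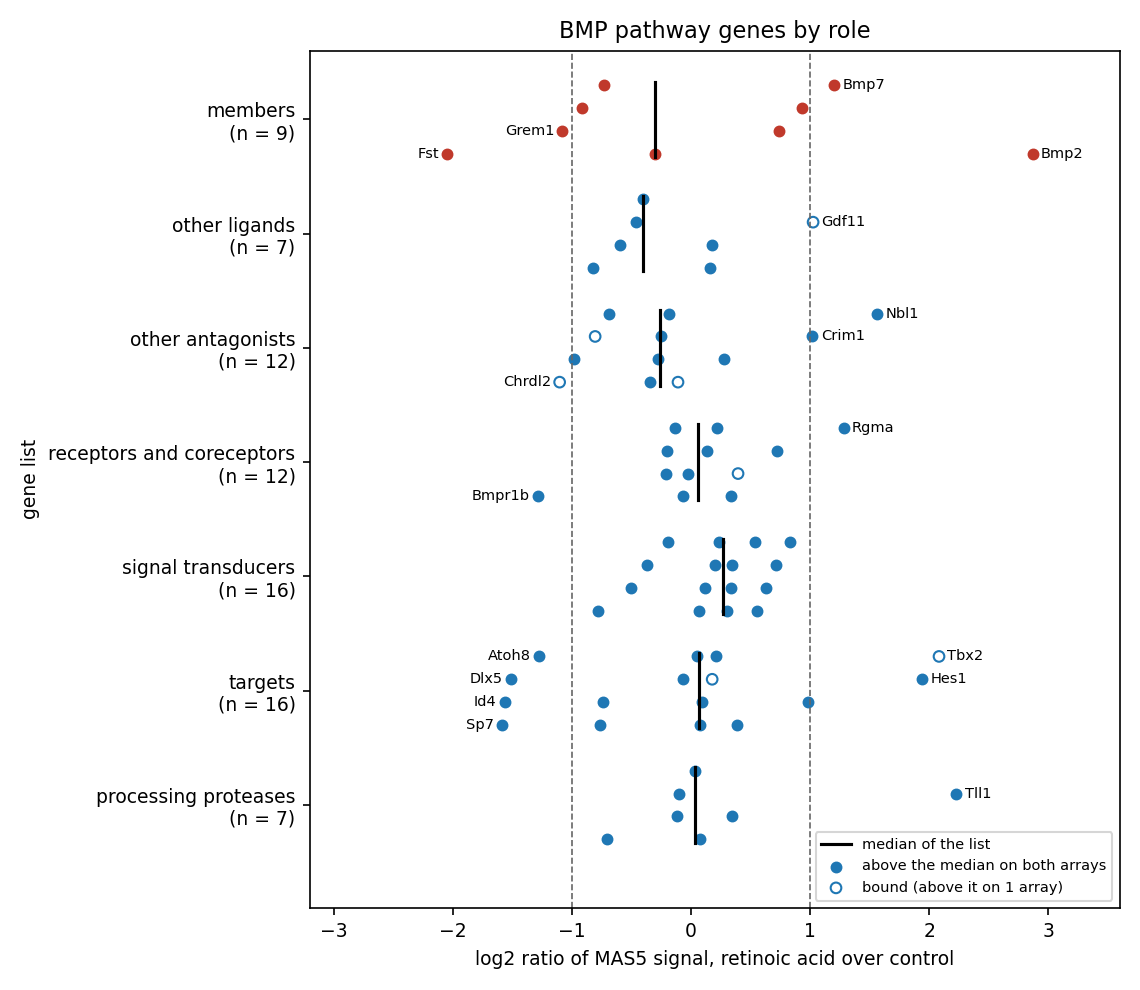
Log2 ratio of MAS5 signal, retinoic acid over control, for the members (red) and for the other pathway genes by role (blue), 1 point per gene, with open circles for bounds, a black bar for each list's median and dashed lines at 2-fold. Genes past 2-fold are named: none of the 16 measured signal transducers is among them, while the targets have 2 on the right and 4 on the left.

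All 16 measured signal transducer genes lay within 2-fold, as did 89.1% of all measured genes, 12 above and 4 below 0, with a median log2 ratio of 0.27. Smad1, Smad5 and Smad4 had log2 ratios of 0.20, 0.07 and −0.20. The dimmer Smad5 probe sets lay on the other side of 0, at −0.24 and −0.21. The inhibitory Smad genes, which the pathway itself induces, were somewhat higher. Smad6 read 726 with retinoic acid and 468 in control, a log2 ratio of 0.63. Smad7 read 214 with retinoic acid and 146 in control, a log2 ratio of 0.55, and its dimmer probe set read 156 with retinoic acid and 65.8 in control, a log2 ratio of 1.24.

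Target genes split. Of 16 measured, 2 passed 2-fold upward and 4 downward (median log2 ratio 0.062), 12.5% and 25% against 6.54% and 4.34% of all measured genes. The Id genes, which encode inhibitors of helix-loop-helix transcription factors and are direct Smad targets, did not share a direction. Id1 read 471 with retinoic acid and 786 in control, a log2 ratio of −0.74. Id2 and Id3 had log2 ratios of 0.09 and 0.21 at signals of 834 and 2972 with retinoic acid, against 781 and 2571 in control. A dimmer Id2 probe set readable on both arrays had a log2 ratio of −0.20. Id4 read 112 with retinoic acid and 332 in control, 2.95-fold lower, and its dimmer probe sets had log2 ratios of −1.43 and −0.93. With the 3 combined by their median Id4 was within 2-fold, at −0.93.

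The other lower targets were transcription factor genes of skeletal and vascular cells. Sp7, which encodes osterix, a factor of osteoblasts, read 41.6 with retinoic acid and 125 in control, a log2 ratio of −1.59. Dlx5, a homeobox gene of chondrocytes and osteoblasts, had a log2 ratio of −1.51, and Atoh8, a helix-loop-helix gene induced by BMP signals in endothelium, one of −1.28. The 2 higher targets were Hes1 and Tbx2. Hes1, also a Notch target, read 123 with retinoic acid and 32.2 in control, 3.83-fold higher. Tbx2, a T-box repressor gene, was at least 4.23-fold higher, with 112 with retinoic acid and 19.2 in control.

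Of the 7 measured genes of BMP processing and chordin cleavage, 1 passed 2-fold upward and 0 downward (median log2 ratio 0.030). This gives 14.3% and 0%, against 6.54% and 4.34% of all measured genes. Tll1 encodes tolloid-like 1, a protease that cleaves chordin and procollagens. It read 266 with retinoic acid and 56.7 in control, 4.68-fold higher with a log2 ratio of 2.23. Its relative Bmp1, a protease despite its name, had a log2 ratio of 0.35, and Furin, whose product cuts BMP precursors, one of 0.03; these 2 were chosen after their values were seen.

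**Figure D4:**
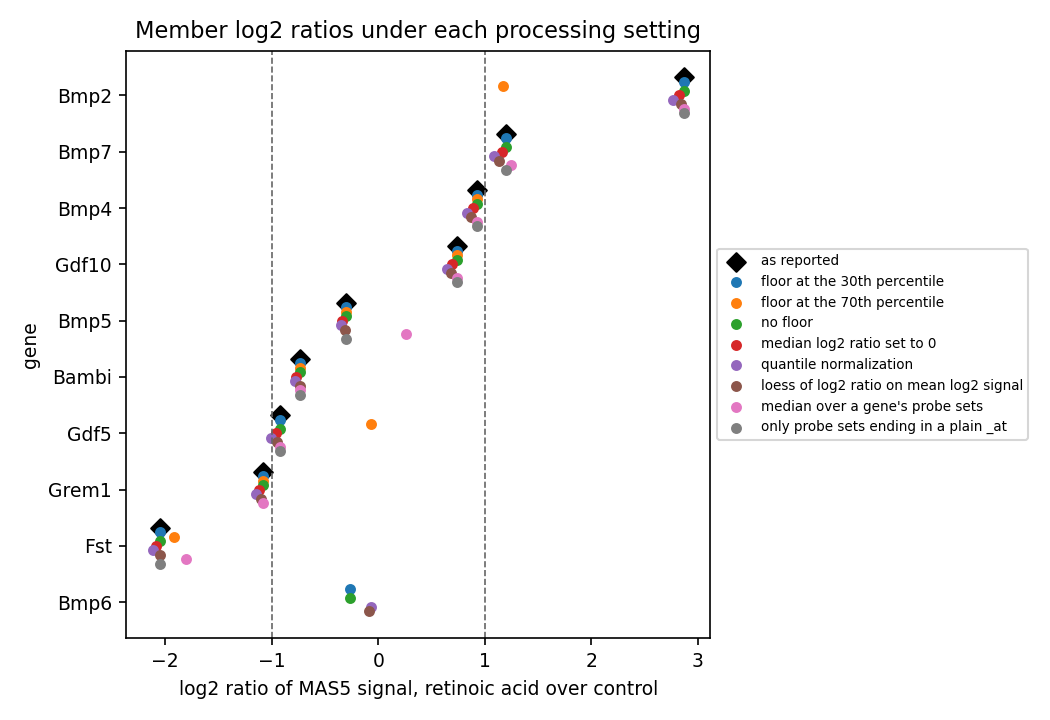
Log2 ratio of MAS5 signal, retinoic acid over control, of each member as reported (black diamonds) and under 8 other processing settings (coloured points), with dashed lines at 2-fold. With the floor at the 70th percentile Bmp2 moves to 1.17 and Gdf5 to −0.07, both as bounds. Bmp5 changes sign when the median over its probe sets is taken.

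A higher floor changed what could be read of the dim members. With the floor raised to the 70th percentile of signal Bmp2 was only at least 2.25-fold higher, as a bound, and Bmp7 was no longer measured. Gdf5 was only at least 1.05-fold lower with that floor, also a bound. In the other settings its log2 ratio lay between −1.01, under quantile normalization, and −0.92. Fst stayed between −2.11 and −1.80 and Bmp4 between 0.83 and 0.93 in all 9 settings, the reported one included. The Fst value at the 70th percentile floor, −1.92, was a bound. Grem1 stayed between −1.15 and −1.08 in the 8 settings that could read it.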

How the data were processed

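Total RNA (100 ng) of each culture was labelled and hybridised to 1 array, per the labels' protocols. The deposited values are intensities, linear MAS5 signals per probe set, named so in the submitters' processing notes; not given in the sources used here are its version, scaling target and detection calls. They were used without further scaling (2% trimmed means 193 with retinoic acid, 183 in control). Precision is limited by having 1 array per group.

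Of 45101 probe sets 64 were controls; 34945 had 1 gene symbol in the platform annotation, and 932 with several and 9160 with none were left out. Each gene was represented by its brightest probe set (mean of log2 signals). One above the floor on 1 array has a bound ("at least"); where the bound ran against the direction it gave no fold. The counting was tested on simulated data with known folds put on bright genes. That test covers neither dim genes such as Bmp2 and Bmp7 nor variation between cultures. Python 3.11.15, numpy 2.4.6, pandas 2.3.3, statsmodels 0.14.6 and matplotlib 3.10.9 were used.

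The members and lists were chosen with earlier results of these data known. The text names all members, pathway genes past 2-fold and a fixed set of Id, Smad, receptor and antagonist genes. The alternatives were 2 other floors (30th and 70th percentile), no floor, 3 scalings (median, quantile, loess with a span of 0.3) and 2 other choices of probe set.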

Additional observations from a re-analysis of the deposited data

How the results depend on the processing

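No paired analysis was possible because each group has 1 array. With the floor at the 70th percentile 1 of 8 measured members (Bmp2) was at least 2-fold higher, against 2 of 10 as reported. Of 49 measured pathway genes 3 were higher and 2 lower there. Of all 8443 genes measured there 449 were higher and 260 lower. With the floor at the 30th percentile 832 of 15117 measured genes were lower, against 516 of 11884 as reported. With no floor all 18193 genes counted as measured, and 2137 of them were higher and 2106 lower, with 11 of 96 pathway genes lower. With plain probe sets only, which leave out Grem1, 1 of 9 measured members (Fst) was at least 2-fold lower. The members' median log2 ratio was then 0.22. It was 0.26 with probe sets of a gene combined by their median, so the sign of that median depends on the probe sets chosen. Of 70 values of single members under the alternatives 67 moved by less than the scatter of 0.30 and 3 by more. Those 3 were Bmp2 to 1.17 and Gdf5 to −0.07 with the higher floor, both bounds, and Bmp5 to 0.26 with combined probe sets. Many of the 67 could not move, so their number is no measure of stability. A floor below a gene's signal changes nothing, nor does the choice of probe set for a gene with 1. Lost values, those of Bmp7 with the higher floor and of Grem1 with plain probe sets, are not among the 70. Among values past 2-fold 0 changed sign. Bmp6 had a ratio, from −0.27 to −0.07, only with the lower floor, with no floor and under quantile and loess scaling. Signal near the array median limits Bmp2, Bmp6, Bmp7 and Gdf5 among the members, and Gdf11, Chrdl2, Bmpr1b, Rgma, Hes1, Tbx2, Sp7 and Atoh8 in the rest of the pathway.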
